A study of Homo sapiens with 4 samples.

Results

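Heat shock proteins and other chaperones were examined as RNAs recovered with PRMT5, an arginine methyltransferase. The 10 genes were HSP90AA1, HSP90AB1, HSPA8, HSPH1 and DNAJB1 of the cytosol, HSPA5 and HSP90B1 of the endoplasmic reticulum (ER), and HSPD1, HSPE1 and HSPA9 of mitochondria. The rule that lists them uses names and compartments and no measured value, although the list was drawn up with earlier results of these data known. They carried 33 of the 18993 peaks in the deposited list, or 10 of its 8478 gene identifiers. A peak counted for a gene when its first-listed identifier was that gene's.

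The RNA came from Jurkat, an established line of human leukemic T cells, held with PHA, a plant lectin that activates T cells, for 48 hours. Cells were crosslinked with UV light, given in the labels as 264 nm at 400 mJ, and PRMT5 was immunoprecipitated through a FLAG tag (RIP). There were 2 PRMT5 RIP libraries and 2 Input libraries, made with a directional kit, and all 4 came from PHA-treated, crosslinked cells of this 1 line. None of the 4 libraries analysed here was labelled as a mock immunoprecipitation, so PRMT5-bound RNA and RNA held by the antibody or beads cannot be told apart.

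The deposited list holds a pair of RPM values per peak (reads scaled to library size), 1 of PRMT5 RIP and 1 of Input, with the log2 fold change and FDR of the authors' peak caller. With 1 pooled value a group there was no spread between replicates, and no difference below was tested. Enrichment is given as the log2 ratio of summed RPM over the peaks of a gene, PRMT5 RIP over Input, after adding 0.01 RPM to each sum. The list holds called peaks and most genes lay above input, with a median log2 ratio of 1.20 (2.30-fold) over all genes and quartiles of 0.77 and 1.71, so each gene was read against that level. In total the RPM over peaks came to 755969 in PRMT5 RIP and 489424 in Input, and read depth was not recoverable from the list. Of 10 T cell markers, 7 had peaks, with summed input RPM from 3.46 to 417.11, and the other 3 could not be matched to the tables used. Of 6 B cell or myeloid markers, CD79A and CSF1R had peaks, with 37.28 and 29.51 input RPM, and the part of such RNA in the results was not tested.

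Chaperones bind unfolded or partly folded proteins and help them to reach or regain their shape. HSP70 proteins bind short exposed stretches with the help of J-domain partners, HSP90 proteins act late on clients such as kinases, and the mitochondrial chaperonin encloses a protein inside a barrel. In stressed cells the transcription factor HSF1 drives many of the cytosolic and mitochondrial genes through heat shock elements, whereas unfolded protein in the ER acts through ATF6 and ER stress response elements.

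These promoter elements are shown because they set the ER genes apart from the others by sequence, which the choice of genes did not use, and because 2 of them lie inside a peak. RefSeq windows of GRCh38.p14, from 250 bases before to 50 after each listed start, were searched on both strands for GAANNTTCNNGAA, the heat shock element of 3 units, and for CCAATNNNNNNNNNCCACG, the ER stress response element. The first was found in 4 of the 16 chaperone windows and in 172 of all 35116 windows (0.49%). The second was found in 2 of the 16 and in 27 of all windows (0.0769%). Each match is printed 5′ to 3′ on the strand of its gene with flanks, and capitals mark the fixed letters of the motif or of its reverse complement. A match is a description of the sequence, and factor binding was not measured.

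HSP90AA1 heat shock element, chr14:102087111-102087140, minus strand: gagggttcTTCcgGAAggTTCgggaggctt
HSP90AB1 heat shock element, chr6:44247770-44247799, plus strand: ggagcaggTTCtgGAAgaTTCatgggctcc
HSP90AB1 heat shock element, chr6:44247823-44247852, plus strand: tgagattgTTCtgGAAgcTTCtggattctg
HSPA8 heat shock element, chr11:123062345-123062374, minus strand: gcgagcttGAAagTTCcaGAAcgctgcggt
HSPA8 heat shock element, chr11:123062170-123062199, minus strand: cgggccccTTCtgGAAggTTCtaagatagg
HSPD1 heat shock element, chr2:197500059-197500088, minus strand: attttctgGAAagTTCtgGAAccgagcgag
HSPD1 heat shock element, overlapping match, chr2:197500061-197500090, minus strand: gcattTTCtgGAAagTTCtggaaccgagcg
HSPA5 ER stress response element, chr9:125241385-125241414, minus strand: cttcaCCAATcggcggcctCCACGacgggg
HSP90B1 ER stress response element, chr12:103930211-103930240, plus strand: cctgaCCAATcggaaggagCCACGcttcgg
HSP90B1 ER stress response element, chr12:103930316-103930345, plus strand: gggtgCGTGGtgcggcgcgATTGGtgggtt

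The heat shock element in HSP90AA1 began 88 bases upstream of a listed start at 102087044. Those of HSPA8 began 230 and 55 bases upstream of a listed start at 123062136. The RefSeq extents of these genes reach further upstream, to 102139749 and 123062462, and so contain these heat shock elements. In HSP90AB1 they began 165 and 112 bases upstream of the start at 44247943 but downstream of another listed start at 44247101, and both lay within the first peak of that gene. HSPD1 had a pair of overlapping matches, which began 240 and 245 bases upstream of the inner of its listed starts. The ER elements began 66 bases upstream of the start of HSPA5, and 194 and 89 bases upstream of that of HSP90B1. The 4 genes with a heat shock element in a window had log2 ratios from 0.08 to 0.43. Both genes with an ER element stood at 1.20 and 1.21. All 4 heat shock element genes had at least 20 input RPM, and HSPE1, without a match in its own window, stood at 0.18. The matches of HSPD1, from 197500068 to 197500085, also lie upstream of the HSPE1 start at 197500379, but outside the window searched for HSPE1. HSPE1 therefore cannot serve as a gene without the element. Other genes of the list with either element were not compared, so no link of element and ratio can be read from these. In windows of the other 4 genes neither set of letters was found, which says nothing of the factors.

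PRMT5 RIP recovered the chaperone RNAs very unevenly. HSPH1 and DNAJB1, stress-induced partners of cytosolic HSP70, stood high in the list, HSPA5 and HSP90B1 of the ER stood at its middle, and HSP90AA1, HSP90AB1, HSPA8, HSPD1 and HSPE1, the genes with the most input RPM, stood near its lower end. All 10 genes had more RPM in PRMT5 RIP than in Input, as did most of the list, where the 5th percentile over genes was 0.19. Log2 ratios of the 10 ran from 0.08 for HSPA8 to 3.12 for HSPH1 with a median of 0.69. Of the 10, 4 (40%) had at least 2-fold more RPM in PRMT5 RIP than in Input, beside 62.3% of all genes of the list. Among the peaks, 11 of 33 (33.3%) passed the same fold, beside 55.7% of all peaks, and 4 had less RPM in PRMT5 RIP. The highest of these 4, in HSPE1 at -0.01, lay at percentile 3.70 of all peaks, so few peaks of the list lay under input. Below the median gene lay 7 of the 10, and below the lower quartile lay 5. Pooled over the 10 genes, RPM came to 389.94 after PRMT5 RIP against 274.33 of Input, a log2 ratio of 0.51, beside 0.63 for the whole list. They held 0.0516% of all peak RPM in PRMT5 RIP and 0.0561% in Input.

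The order of the genes went with their input level. The 5 genes with at least 20 input RPM were HSP90AB1, HSPD1, HSPE1, HSP90AA1 and HSPA8, with log2 ratios from 0.08 to 0.43. The other 5 had 0.95 to 3.12. Among all genes within a factor of 2 of their input RPM, 24.8% to 34.5% passed 2-fold for the first 5. For the other 5 this share was 42.6% to 74.8%, so such a limit does not part the whole list. Spearman's rho between summed input RPM and log2 ratio was -0.75 over the 10 genes and -0.55 over all genes, given as descriptions since input RPM is also the denominator of the ratio. RPM sums are not corrected for transcript length, so input here stands for reads in peaks and not for molecules. Each gene was therefore also placed among the genes of the list whose input RPM lay within a factor of 2 of its own. On that scale HSPH1 (percentile 99.1) and DNAJB1 (98.2) stayed at the top, HSPA5 came to 73.4, and HSPA8 (4.62) and HSPE1 (8.29) stayed lowest. HSP90AA1, HSP90AB1 and HSPD1 rose to 20.8, 23.5 and 21.5, from 11.1, 7.90 and 9.19 among all genes, so their low place rested partly on input level. Of the 10 genes, 7 lay below the median of the genes of like input.

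Among the cytosolic genes, the HSP90 pair showed similar low enrichment. HSP90AA1 (ENSG00000080824), the stress-inducible HSP90, lay on chromosome 14, minus strand, with 3 peaks that summed to 34.56 RPM after PRMT5 RIP against 25.6 RPM of Input, a log2 ratio of 0.43 (1.35-fold). Most of this lay in its first peak, from 102085993 to 102087041, which began 3 nt after a listed start and had 32.94 against 24.14 RPM. Its other 2 peaks were each 25 nt wide, with 0.84 against 0.79 RPM and 0.78 against 0.67 RPM, so neither moved far from input. Here and below, the PRMT5 RIP value comes first and the Input value after "against", and a log2 ratio may follow in parentheses.

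HSP90AB1 (ENSG00000096384), the constitutive HSP90, had the largest sums, 129.33 RPM against 103.77 RPM of Input, a log2 ratio of 0.32 (1.25-fold). Its 5 peaks on the plus strand of chromosome 6 differed along the gene. The first, from 44247108 to 44247877, which holds both printed heat shock elements, had 10.01 against 6.35 RPM and a log2 ratio of 0.66. The widest, from 44248078 to 44250327, had 64.79 against 40.22 RPM and 0.69. The later peaks lay closer to input, and 2 of the 3 were under it. The 25-nt peak from 44250553 had 2.66 against 3.34 RPM (-0.33), the peak from 44252097 had 9.31 against 8.13 RPM (0.20), and the last, from 44253199 to 44253783, had 42.56 against 45.73 RPM (-0.10). Per 100 nt of peak, PRMT5 RIP RPM was 1.3 in the first and 7.28 in the last, so the last peaks were deeper in reads while less enriched. HSP90AA1 lay 0.12 above HSP90AB1 in log2 ratio, a difference with no replicate check.

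HSPA8 (ENSG00000109971), the constitutive HSP70, had the lowest ratio of the 10, with 24.28 against 23.02 RPM, a log2 ratio of 0.08 (1.05-fold, percentile 3.21 of all genes). Its 2 peaks on the minus strand of chromosome 11 behaved differently. The 5′ one, from 123061688 to 123061787, had only 0.69 RPM against 0.18 RPM but a log2 ratio of 1.88. The 3′ one, from 123060369 to 123061120, had 23.59 against 22.84 RPM and 0.05, and it set the sum. With the median of the peak ratios in place of the sum, HSPA8 stood at 0.96.

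HSPH1 (ENSG00000120694), a nucleotide exchange factor of HSP70, had the highest ratio. Its single peak on the minus strand of chromosome 13, from 31161511 to 31161910, lay 478 nt after a listed start. Its RPM was 8.94 after PRMT5 RIP against 1.02 of Input, a log2 ratio of 3.12 (8.69-fold), which was rank 109 of 8478 genes. HSPH1 was thus 3.04 above HSPA8, an HSP70 that it serves, on the log2 ratio scale.

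DNAJB1 (ENSG00000132002), a J-domain protein that delivers clients to HSP70, was the other highly enriched gene, with 34.47 against 7.24 RPM over 6 peaks of chromosome 19, minus strand. Its log2 ratio of 2.25 (4.76-fold) was at percentile 90.7 of all genes and 2.17 above HSPA8. Most of it lay in a wide peak of 8318 nt, from 14517819 to 14526136, which had 19.37 against 1.76 RPM and a log2 ratio of 3.45, the highest of the 33 peaks. This peak covers a listed start at 14517937 and reaches upstream of it, and its RPM was thinly spread, at 0.233 PRMT5 RIP RPM per 100 nt. Without peaks wider than 5000 nt the log2 ratio of DNAJB1 was 1.46, and in its peak with the highest input it was 0.93, so its rank rests on the wide peak.

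The other DNAJB1 peaks were narrow. One of 125 nt, from 14529601 to 14529725, had 6.77 against 1.27 RPM (2.41), lay 454 nt upstream of the nearest listed start, and overlapped a plus-strand peak of the neighbouring gene TECR, which had 6.29 against 1.32 RPM. Whether its reads came from either strand was not tested. Within the body of the gene the peaks from 14516919 (5.27 against 2.77 RPM, 0.93), 14516444 (1.36 against 0.52, 1.37), 14516119 (1.5 against 0.84, 0.83) and 14515819 (0.2 against 0.08, 1.22) lay close to the median peak of the list, at 1.10.

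The ER chaperones had nearly the same ratio of summed RPM. By the median of peak ratios they differed more, with 1.22 for HSPA5 and 0.89 for HSP90B1. Among genes of like input, HSPA5 was at percentile 73.4 and HSP90B1 at 44.2. HSPA5 (ENSG00000044574), the ER HSP70 also known as BiP, had 25.66 against 11.06 RPM over 3 peaks of chromosome 9, minus strand, a log2 ratio of 1.21 (2.32-fold, percentile 50.9). Its 572-nt first peak, from 125240776 to 125241347, covered the listed start and had 25.13 against 10.75 RPM (1.22). It held nearly all reads of the gene. The other peaks, both of 25 nt, had 0.37 against 0.28 RPM (0.39) and 0.16 against 0.03 RPM (2.09), so the last ratio rests on very low values.

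HSP90B1 (ENSG00000166598), the ER HSP90 also known as GRP94, had 3.7 against 1.61 RPM over 3 peaks of chromosome 12, plus strand, a log2 ratio of 1.20 (2.29-fold, percentile 49.6). The first peak, from 103930457 to 103930616, began 47 nt after the listed start and had 1.55 against 0.46 RPM (1.73). It lists 2 identifiers. The next, from 103930778 to 103931622, had 1.94 against 1.04 RPM (0.89). The last, of 25 nt from 103953485, had 0.21 against 0.11 RPM (0.87) and lay 5559 nt past the RefSeq end of the gene, and it was kept by its identifier. HSP90B1 stood 0.88 above HSP90AB1 and 0.76 above HSP90AA1 in log2 ratio, and HSPA5 stood 1.14 above HSPA8.

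The mitochondrial genes include a divergent pair. HSPD1 (ENSG00000144381), the chaperonin subunit, and HSPE1 (ENSG00000115541), its lid, lie head to head on chromosome 2, with 104 bases between their outer listed starts. HSPD1, on the minus strand, had 75.06 against 58 RPM over 6 peaks, a log2 ratio of 0.37 (1.29-fold). HSPE1, on the plus strand, had 41.29 against 36.47 RPM over 2 peaks and 0.18 (1.13-fold). The partners thus differed by 0.19, and both lay near the bottom of the list, at percentiles 9.19 and 4.81.

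Most reads of HSPD1 lay in a 3861-nt peak, from 197495303 to 197499163, with 58.06 against 47.27 RPM (0.30). A 260-nt peak over the inner start, from 197499606 to 197499865, was more enriched, with 4.35 against 1.42 RPM (1.61). A 16435-nt minus-strand peak, from 197500196 to 197516630, reached from the outer start over the whole of HSPE1 on the opposite strand, with 8.28 against 5.29 RPM (0.65). The 3 peaks toward the 3′ end stayed near input, with 0.79 against 0.78 RPM (0.02), 0.94 against 0.98 RPM (-0.06) and 2.64 against 2.26 RPM (0.22). The caller's log2 fold change for the wide peak, 3.21, exceeded its RPM ratio by 2.56.

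The HSPE1 peaks, from 197503039 to 197503138 and from 197503189 to 197503313, had 23.59 against 18.63 RPM (0.34) and 17.7 against 17.84 RPM (-0.01). Both lie inside a plus-strand peak of 23444 nt, from 197500190 to 197523633, whose first-listed gene is the downstream neighbour MOB4 and which had 70.94 against 47.91 RPM (0.57). Counting every listed identifier gave that peak to HSPE1 too and moved its log2 ratio to 0.41.

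HSPA9 (ENSG00000113013), the mitochondrial HSP70 also known as mortalin, had 12.65 against 6.54 RPM over 2 peaks of chromosome 5, minus strand, a log2 ratio of 0.95 (1.93-fold, percentile 35.0). The first, from 138575161 to 138575381 and 20 nt after the listed start, had 2.55 against 0.58 RPM (2.12). The second, from 138570979 to 138574785, had 10.1 against 5.96 RPM (0.76). HSPA9 was 0.87 above HSPA8 and 0.26 below HSPA5 in log2 ratio, so the constitutive HSP70 of the cytosol was the lowest of the 3 HSP70 genes in these pooled values.

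By compartment, the ER genes had the highest median log2 ratio, 1.20 over 2 genes, beside 0.43 over the 5 cytosolic genes and 0.37 over the 3 mitochondrial genes. Both ER genes passed 2-fold, as did 2 of 5 cytosolic genes (HSPH1 and DNAJB1) and 0 of 3 mitochondrial genes. Of all genes 62.3% passed, and their median log2 ratio was 1.20, as in the ER genes. In peaks, 3 of 6 (50%) passed in the ER genes, 6 of 17 (35.3%) in the cytosolic and 2 of 10 (20%) in the mitochondrial genes. Among all peaks 55.7% passed, more than in any of the 3 compartments. Pooled RPM gave the same order, with 29.36 against 12.67 RPM for ER (1.21), 231.58 against 160.65 for cytosolic (0.53) and 129 against 101.01 for mitochondrial genes (0.35). The log2 ratio of RPM pooled over the whole list was 0.63.

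The medians hide the spread within the cytosol, where genes ran from 0.08 to 3.12 and covered the ranges of both organelles, 1.20 to 1.21 and 0.18 to 0.95. The ER lay 0.77 above the cytosol by medians, but by means it was 0.03 lower (difference -0.03, with a cytosolic mean of 1.24). Leaving out HSP90AA1, HSP90AB1 or HSPA8 also turned the difference, to -0.08, -0.14 and -0.14. Mitochondrial genes lay 0.06 below the cytosol by medians (difference -0.06), and this turned to 0.13 without HSPD1 and 0.23 without HSPE1, so no order of cytosol and mitochondria can be read from these genes.

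Enrichment also differed along the genes. Of the 9 genes with 2 or more peaks, 8 had a higher log2 ratio in the 5′-most than in the 3′-most peak, HSPA5 being the exception, beside 69.5% of the 4657 such genes in the list. The medians were 1.22 for the 5′-most and 0.22 for the 3′-most peaks. Of all 10 genes, 6 had a 5′-most peak of at least 2-fold, beside 69.6% of all genes. HSPA8 (1.88 and 0.05), HSPA9 (2.12 and 0.76) and HSP90AB1 (0.66 and -0.10) show the pattern with peaks inside the gene, whereas the 5′-most peaks of HSPD1 and DNAJB1 and both HSPE1 peaks overlap a peak of the opposite strand. Exons were not used here, so whether a peak lies in an exon, an intron or a UTR was not analysed.

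**Figure D1:**
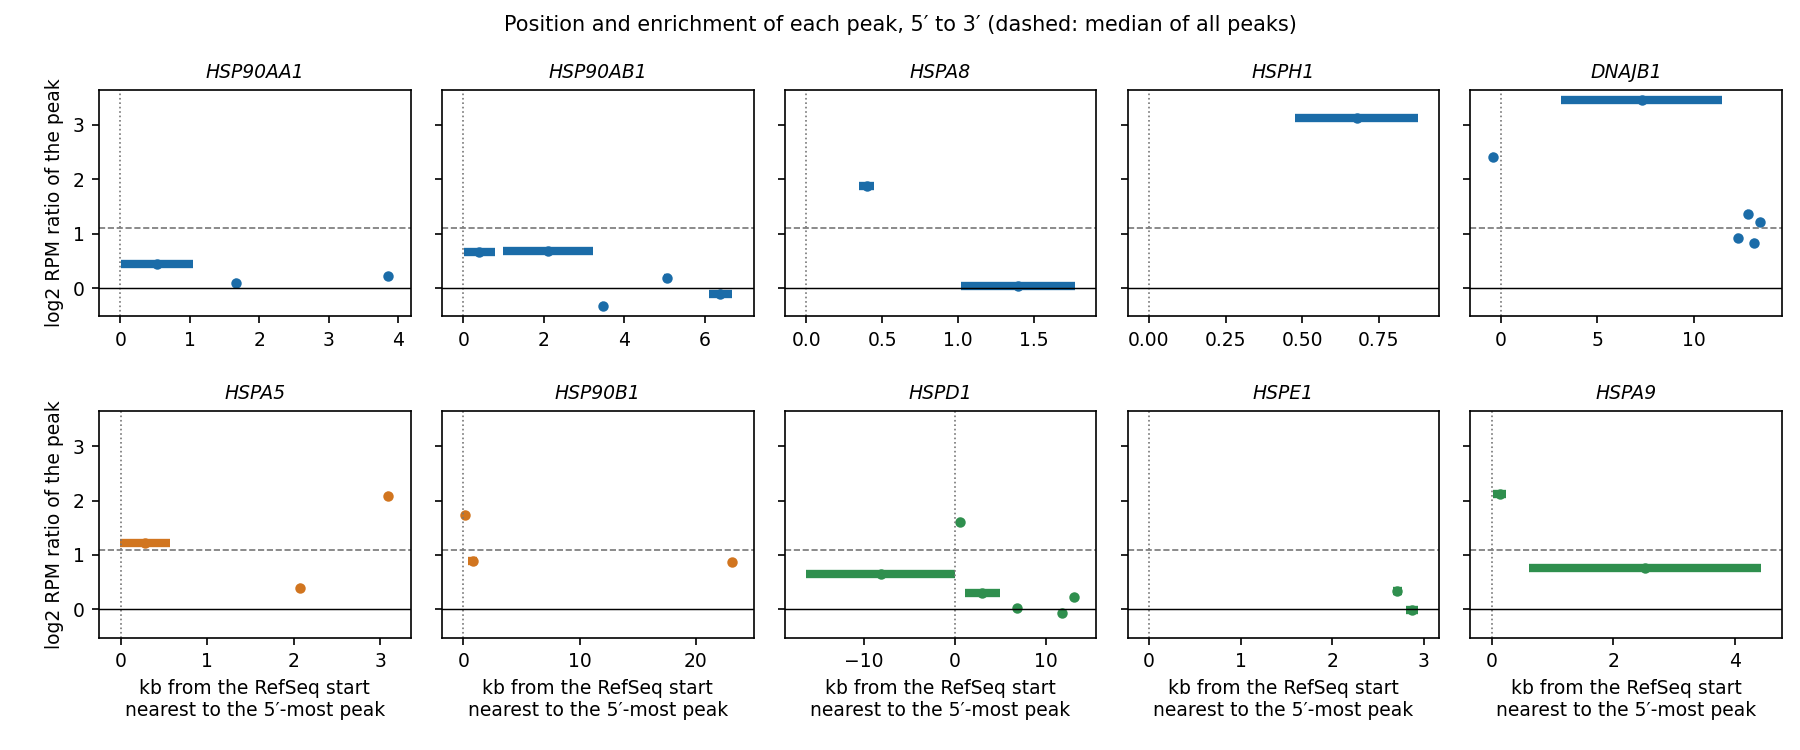
Log2 RPM ratio of each peak against its place along the gene in kb, 5′ to 3′, measured from the RefSeq start nearest to the 5′-most peak (dotted line). Bars span the peak, points mark its middle, and the dashed line is the median of all peaks, 1.10. In 8 of 9 genes with several peaks the 5′-most peak is higher than the 3′-most, and 4 peaks lie below 0.

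Peak shape and the caller's own values were also compared. Widths ran from 25 to 16435 nt with a median of 150 nt, beside 275 nt in the whole list, and 9 peaks were 25 nt wide and 6 over 1000 nt. All 33 had a caller FDR at or under 0.01, the largest being 1.51e-09, so the FDR did not separate them. The caller's log2 fold change ran from 0.40 to 4.44 and was highest for the wide DNAJB1 peak. It exceeded the log2 RPM ratio by a median of 0.79 in the whole list, and 22 of the 33 peaks lay within 0.1 of that offset. By the median caller value 8 of 10 genes passed 2-fold, beside 94.9% of all genes, and HSP90AA1 (0.94) and HSPE1 (0.84) did not. On that scale HSPH1 (3.89) kept the first place, HSPA9 (2.22) came next, and DNAJB1 (2.11) lay near the median gene, at 2.06.

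The wider folding machinery was described from 90 further genes in 6 lists. Of these 72 had peaks, 7 had none and 11 could not be matched to the tables used. In each list the 2 highest and 2 lowest genes among those with at least 1 input RPM are named, and genes under that limit can lie higher. All 72 lay above input, as did most genes of the list (5th percentile of log2 ratio 0.19). The median log2 ratio of the 72 was 1.02, and 37 (51.4%) passed 2-fold, beside the 62.3% of all genes. The median of the 10 genes above, 0.69, was lower than this, a difference that was not tested.

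The list of cytosolic HSP70, HSP40 (J-domain proteins) and cofactors had a median of 1.08, and 10 of 16 passed 2-fold. It holds HSP70 genes and a small heat shock protein as well as partners of HSP70. The highest with at least 1 input RPM were DNAJB6 (11.09 against 2.77 RPM, 3.99-fold), a J-domain protein that holds back aggregation, and BAG1 (111.46 against 28.16 RPM, 1.98), a nucleotide exchange factor. The lowest were DNAJC8 (0.40) and DNAJA2 (0.66), both J-domain proteins. HSP90 cochaperones were close to these, with a median of 1.13 and 6 of 10 past 2-fold. PTGES3 (1.84), the p23 cochaperone, and PPID (1.49), an HSP90-binding prolyl isomerase, were highest among those with at least 1 input RPM. STIP1 (161.58 against 124.92 RPM, 0.37), which links HSP70 to HSP90, and AHSA1 (0.59), which activates the HSP90 ATPase, were lowest. By the median caller value PTGES3 (1.08) lay below STIP1 (1.14) and AHSA1 (1.14), whereas PPID (2.25) stayed above both.

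The cytosolic chaperonin TRiC and its helper prefoldin formed the lowest list, with a median of 0.65 and 4 of 12 past 2-fold (33.3%). CCT3 (147.84 against 133.38 RPM, 0.15) and CCT7 (0.35), both TRiC subunits, were lowest, and the prefoldin subunits PFDN6 (64.17 against 12.43 RPM, 2.37) and PFDN4 (1.24) were highest. Other TRiC subunits were higher, with TCP1 at 1.07 and CCT4 at 1.11, and these 2 were named after their values were seen. By the median caller value CCT7 (1.92) lay above TCP1 (0.67) and CCT4 (1.29), and CCT3 (0.47) was again lowest.

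ER folding genes had a median of 1.01, and 10 of 19 passed 2-fold (52.6%), from PPIB (193.92 against 157.25 RPM, 0.30), an ER prolyl isomerase, and MANF (0.44), a protein induced by ER stress, to DNAJB11 (1.37), a J-domain partner of HSPA5, and SDF2L1 (87.73 against 26.52 RPM, 1.73), which acts with it. These bounds hold for genes with at least 1 input RPM, and the highest of the whole list was at 1.97. The list thus spanned both sides of HSPA5 and HSP90B1. Mitochondrial folding genes and proteases had a median of 0.97, with 3 of 9 past 2-fold. TRAP1 (0.60), the mitochondrial HSP90, and LONP1 (0.66), a protease, were lowest, and DNAJA3 (1.00), the J-domain partner of HSPA9, and PAM16 (5.81 against 1.06 RPM, 2.44), part of the import motor, were highest, again among those with at least 1 input RPM. The stress regulators had a median of 1.22 and 4 of 6 past 2-fold. XBP1 (1.41) and DDIT3 (1.02), transcription factors of the unfolded protein response, lay above ATF4 (238.91 against 161.5 RPM, 0.56). HSBP1 (44.34 against 43.15 RPM, 0.04), a small HSF1-binding protein, was lowest. By the median caller value ATF4 (2.08) lay above DDIT3 (1.59) and XBP1 (1.35), so that order turned, and HSBP1 (1.10) was again lowest.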

How the data were processed

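A single peak list was deposited by the authors, with RPM of PRMT5 RIP and of Input rounded to 0.01, and their peak caller's log2 fold change, p-value and FDR (a q-value). Per the submitters' processing notes, fastp, HISAT2 and hg38 were used. The peak caller, all versions and the pooling of replicates are not given in the sources used here. Since only pooled values were at hand, no test, interval or floor was computed.

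Positions were made 1-based. Identifiers took their symbol from the supplementary gene table where it names them, otherwise from the RefSeq gene of GRCh38.p14 touched on the same strand, and 6218 of 8478 got one. Both ways gave a name for 694, and 693 names were the same. Log2 ratios used a pseudocount of 0.01 RPM. Antisense and overlapping genes are uncertain. The summing of RPM over genes was tested on simulated data, with known folds put into the input values. Symbols, assignment of peaks, positions and the motif search were not tested in this way. The members and lists were chosen with earlier results of these data known. All 10 members were named with all their peaks, and in each wider list the 2 highest and 2 lowest genes by log2 ratio with at least 1 input RPM. The wider lists were cytosolic HSP70, HSP40 and cofactors, HSP90 cochaperones, TRiC and prefoldin, ER folding, mitochondrial folding and proteases, and stress regulators. Alternatives covered the measure, pseudocount, filters, strand and assignment of peaks. Python 3.11.15, pandas 2.3.3, numpy 2.4.6 and matplotlib 3.10.9 were used.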

Additional observations from a re-analysis of the deposited data

How the results depend on the processing

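No paired analysis was possible because the list holds 1 pooled value a group, although the libraries share replicate numbers, and leaving out replicates or using the replicate as a block was not run for the same reason. The difference of the ER from the cytosolic genes, 0.77 in median log2 ratio, was 0.095 with the median of peak ratios, 0.61 with the peak of highest input RPM, 0.063 with the caller's log2 fold change, 0.75 and 0.58 with pseudocounts of 0.1 and 1, and 0.63 with peaks of at least 0.5 input RPM. The difference of the mitochondrial from the cytosolic genes, -0.06, was -0.70 with the median of peak ratios, -0.11 with the peak of highest input RPM, -0.77 with the caller's value, -0.052 with a pseudocount of 1, -0.066 with peaks of at least 50 nt, and -0.021 with every listed identifier. It turned to 0.21 without peaks that overlap the opposite strand, which leaves HSPE1 with none. The causes were not tested.

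Further alternatives were chosen after seeing the data. With means over genes the differences were -0.035 for the ER and -0.74 for mitochondria, and with peaks of at most 5000 nt the latter was -0.092. Leaving out HSP90AA1, HSP90AB1 or HSPA8 gave -0.079, -0.14 and -0.14 for the ER and -0.91, -0.97 and -0.97 for mitochondria. Leaving out HSPH1 or DNAJB1 gave 0.83 for the ER in both cases and -0.0033 for mitochondria in both. The ER difference was 0.76 without HSPA5 and 0.78 without HSP90B1, and the mitochondrial one 0.13 without HSPD1, 0.23 without HSPE1 and -0.16 without HSPA9.

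Of the 10 genes, 4 passed 2-fold, but 2 with the peak of highest input and 8 with the caller's value. With the other alternatives 3 to 4 passed, and not always the same genes. By the median of peak ratios the 4 held the mitochondrial HSPA9 (1.44) in place of the ER gene HSP90B1 (0.89). Of the wider genes 37 passed, but 68 with the caller's value and 23 with a pseudocount of 1, and the median of all genes was then 2.06 and 0.75 in place of 1.20. The count of 33 peaks ran from 24 with a width of at least 50 nt to 34 with every listed identifier.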

Other observations

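Peaks of other genes lay opposite the chaperone genes or within 1000 nt of them. Plus-strand RNA upstream of HSPA8, listed for LOC124902775 from 123062971 to 123063170, had 1.75 against 0.66 RPM (PRMT5 RIP against Input), a log2 ratio of 1.39 beside 0.08 for HSPA8. The wide TECR peak that begins beside the DNAJB1 peak had a log2 ratio of 2.24 over 32769 nt, nearly that of DNAJB1 itself, 2.25. RABEPK, which runs toward HSPA5 from the opposite strand, had 11.96 against 6.37 RPM and 0.91, and SLC35B2, past the end of HSP90AB1, had 2 peaks with 0.94 and 0.93 on less than 1 RPM each. These neighbours were listed after their values were seen, and how far reads of one strand entered the peaks of the other was not tested.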
